A study of Mus musculus with 10 samples.

Results

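The complement and coagulation genes of the liver were followed as a list of 46 named gene symbols, given by name with no threshold on a measured value, out of 24537 symbols in the count table. All 46 were in the table and all 46 passed the filter on low counts. Of these, 40 are made chiefly by hepatocytes. The hepatocyte-made members are C1ra, C1s1, C2, C4b, Masp1, Masp2, Mbl1, Mbl2, C3, Cfb, Hc, C6, C8a, C8b, C8g, C9, Cfi, C4bp, Serping1, Vtn, Fga, Fgb, Fgg, F2, F5, F7, F9, F10, F11, F12, F13b, Klkb1, Kng1, Kng2, Proc, Pros1, Serpinc1, Serpind1, Plg and Serpinf2. The chains of C1q (C1qa, C1qb, C1qc) are made by macrophages, C3ar1 and C5ar1 are anaphylatoxin receptors of myeloid cells, and Cfd encodes adipsin, the factor D that fat cells release.

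The study sequenced polyadenylated RNA from 10 whole livers of male mice. Every mouse had received the liver-directed virus AAV8 carrying saCas9, the small Cas9 of Staphylococcus aureus, under the hepatocyte promoter TBG, so all groups share the virus and the nuclease, and editing was aimed at hepatocytes and not at macrophages. The young controls (n = 3) carried a Rosa26 guide, were 9 months old and had received virus at 7 months. The old controls (n = 3) carried a Rosa26 guide, were 25 months old and had received virus at 23 months. The old Cd44 knockout mice (n = 4) were also 25 months old with virus at 23 months, and knockout livers 1 and 2 carried Cd44 guide 4 while knockout livers 3 and 4 carried guide 2. Replicate numbers only name a liver. The labels do not say more about littermates or pooling, so p-values measure only the spread between these livers. Differences between animals and technical differences cannot be told apart in that spread.

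Complement is a cascade of plasma proteases in which C1q, mannose-binding lectins or spontaneous turnover of C3 start cleavage of C4, C2 and C3, and C5 to C9 then form a membrane pore. Coagulation is a second cascade that turns prothrombin into thrombin, which cuts fibrinogen into fibrin, while antithrombin, protein C and plasmin hold it in check. Hepatocytes secrete nearly all of these proteins, and many of them belong to the acute-phase response that interleukin 6 drives through STAT3 and C/EBP factors. C1q stands apart, because resident macrophages such as Kupffer cells make it.

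Values are given as CPM, counts scaled to library size with TMM factors, and changes as log2 fold changes from edgeR's quasi-likelihood test on all 13909 genes that passed the filter, called at a Benjamini-Hochberg adjusted p under 0.05. Totals were 15821198 to 21710228 counts per liver, so 3 counts correspond to 0.131 to 0.198 CPM, and such floors cover counting error only. Cd44, the targeted gene, had 16.6, 11.1 and 10.1 CPM in the young livers, 14.2, 30.0 and 25.9 CPM in the old controls and 18.9, 29.0, 17.6 and 13.1 CPM in knockout livers 1 to 4. The Cd44 knockout and old control values overlapped (log2 fold change -0.25 ± 0.30 SE, adjusted p = 0.896), and a whole-liver RNA level holds cells that the virus did not target, so the level does not check the labels. Hepatocyte markers were abundant in every library, at a summed 96322 to 126716 CPM in the young, 80807 to 107675 in the old control and 87579.8 to 92268 in the knockout livers over 10 genes. Of these markers, Hnf4a (log2 fold change -0.96 ± 0.22 SE, adjusted p = 0.0147) and Tat (-0.84 ± 0.27 SE, adjusted p = 0.0479) were lower in old controls than in young livers. Old control 2 held 243 CPM of neutrophil markers against at most 20.5 elsewhere, and old control 3 carries a library name outside the run of the others.

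Few members passed the test with age. Against young controls, old controls had 4 members called higher, the 3 C1q chains and C3ar1, where 14.1% of all genes tested were called higher. They had 1 member called lower, C6 of the membrane pore, where 8.66% of all genes were. In whole-liver RNA, a change in the number of cells of a type and a change in RNA per cell cannot be told apart. The hepatocyte-made members had a median log2 fold change of -0.07 against 0.04 for all genes tested, and 29 of 40 were negative. With total counts in place of TMM factors the median of all genes moved from 0.04 to 0.34 and that of the hepatocyte-made members to 0.22, with 9 of 40 negative, so a direction of small size depends on the scaling. Ranges of livers, and whether groups overlap, are given throughout for TMM-scaled CPM and can differ with total counts only, also for genes where this is not repeated. The C6 call and the 4 calls for C1q and C3ar1 were made under both scalings. With total counts only, 4 hepatocyte-made members were also called higher, C1s1, F7, F11 and Pros1 (log2 fold changes of 0.43 to 0.65), where 27.8% of all genes were called higher. Over all genes, 62.0% of the calls were higher in old controls with TMM and 91.6% with total counts only.

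Old knockout livers set against young livers, which share the young libraries with the age comparison, had 2 members called higher (C1qa and C1qb, with 6.64% of all genes called higher). They had 4 members called lower, C6 and the 3 fibrinogen chains, with 4.97% of all genes called lower. The hepatocyte-made members had a median of -0.32 against 0.03 for all genes, and 38 of 40 were negative, a count that became 20 of 40 with total counts only. In that comparison 57.2% of all calls were higher with TMM factors and 92.9% with total counts only. With TMM factors, all 4 knockout livers lay below all 3 young livers for 23 of the 40 hepatocyte-made members, where 18.8% of all genes did so. This count was not made with total counts only, where 20 of 40 had negative changes. The reverse held for Klkb1 alone among the 40, and for C1qa, C1qb, C1qc and C3ar1 outside them, where 21.1% of all genes lay above.

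**Figure D1:**
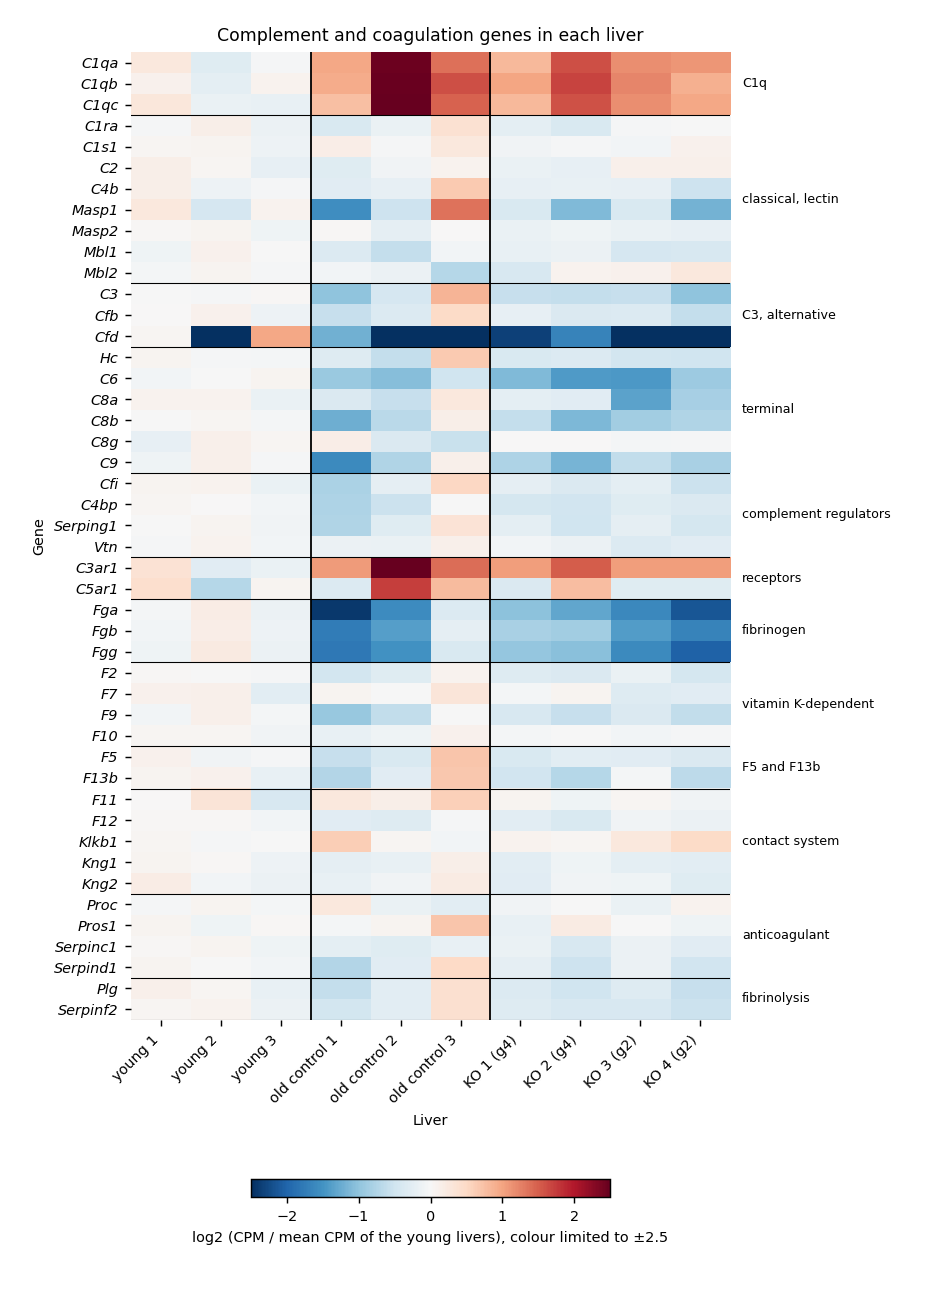
Each row is a gene, each column a liver, and colour is the log2 ratio of CPM to the mean of the young livers, limited to ±2.5. The C1q and C3ar1 rows are red in all 7 old livers, the fibrinogen and C6 rows are blue, and many hepatocyte-made rows are blue in old controls 1 and 2 and red in old control 3.

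Per length of transcript, the fibrinogen chains Fgg and Fga led the list in every group. Levels between genes were compared as CPM per kilobase of the longest principal transcript (RPKM in what follows, a level and not a difference). The order therefore depends on the transcript chosen. Fgb was divided by 3810 bases, Fga by 2587 and Fgg by 1695, while the young mean was 9196 CPM for Fgb and 7696 CPM for Fgg. In young livers Fgg stood at 4541, Fga at 4187 and Fgb at 2414 RPKM, ahead of Vtn (vitronectin, 1678), Kng1 (kininogen, 1363) and C3 (1329). The C1q chains ranked 38 to 40 of 46 in young livers, with C1qa at 48.1 RPKM. C1qa stood at 161 RPKM and rank 24 in old controls, and at 111 RPKM and rank 27 in knockout livers. C6 went the other way, from 113 RPKM and rank 30 in young livers to 64.4 and rank 36 in old controls and 48.9 and rank 38 in knockout livers. In young livers the lowest levels were those of C3ar1 and C5ar1, with 0.762 and 1.33 RPKM.

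Fibrinogen is the hexamer that thrombin turns into the fibrin mesh of a clot, and its 3 chains come from neighbouring genes within 42.14 kb of chromosome 3 (83007724 to 83049863 on GRCm38). Fgg (chromosome 3, 83007724 to 83015049, plus strand, 10 exons), Fga (chromosome 3, 83026076 to 83033627, plus strand, 6 exons) and Fgb (chromosome 3, 83040141 to 83049863, minus strand, 8 exons) were lower in TMM-scaled CPM in every old control and every knockout liver than in any young liver. The old knockout livers had fitted levels 2.21- to 2.76-fold below the young livers, and the old controls 1.95- to 2.29-fold below them. The sequences ahead of their start sites are shown because the 3 genes moved together. They are the 250 bases before and the 10 bases after the RefSeq start (GRCm38.p6), written 5′ to 3′ on the gene's strand. Capitals mark CTGGGA (the type 2 interleukin 6 response word), TTGCNNAA (a C/EBP-type word) and GTTAATNAT (an HNF1-type word), each searched on both strands.
Fgg at chr3:83007474-83007733, plus strand, Fga at chr3:83025903-83026162, plus strand and Fgb at chr3:83049854-83050113, minus strand read as follows.
Fgg: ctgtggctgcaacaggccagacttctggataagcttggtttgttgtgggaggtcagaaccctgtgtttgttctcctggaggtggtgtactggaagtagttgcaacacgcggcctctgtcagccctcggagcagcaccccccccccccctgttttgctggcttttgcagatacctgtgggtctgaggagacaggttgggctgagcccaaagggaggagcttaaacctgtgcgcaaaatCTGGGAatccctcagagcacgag
Fga: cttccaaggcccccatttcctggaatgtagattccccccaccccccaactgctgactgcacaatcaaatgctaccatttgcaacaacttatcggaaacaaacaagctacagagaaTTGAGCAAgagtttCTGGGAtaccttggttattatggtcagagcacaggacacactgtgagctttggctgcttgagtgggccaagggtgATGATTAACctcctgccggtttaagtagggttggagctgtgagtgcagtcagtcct
Fgb: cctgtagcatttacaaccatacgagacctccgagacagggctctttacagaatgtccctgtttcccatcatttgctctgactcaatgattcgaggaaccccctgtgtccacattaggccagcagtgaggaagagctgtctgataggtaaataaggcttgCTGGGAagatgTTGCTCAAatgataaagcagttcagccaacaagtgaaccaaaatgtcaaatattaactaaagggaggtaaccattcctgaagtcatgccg

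The Fga window holds the C/EBP-type word with its first base 135 bases before the start, CTGGGA at 121 before and the HNF1-type word at 46 before. The Fgb window holds CTGGGA at 91 and the C/EBP-type word at 80 before the start, and the Fgg window holds CTGGGA at 13 before. RefSeq gave such windows, 300 bases long and reaching 50 bases past the start, for 36 of the 46 members. CTGGGA occurred in 18 of 31 hepatocyte-made members with a window and in 31.8% of 32851 windows of all genes. The C/EBP-type word occurred in 11 of the 31 and in 10.8% of all windows, and the HNF1-type word in 4 of the 31 and 0.801% of all. STAT words (TTCNNNGAA) occurred in 8 of the 31 and in 8.30% of all windows, and in Fgb, F9, Masp2 and Vtn they overlap one of the other words searched (GAGGAA or CTGGGA). A match is a description of the letters and not a bound site.

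Fga had 10452, 12280.3 and 9761 CPM in the young livers, 2048, 3654 and 8493 CPM in the old controls and 5315, 4402, 3536 and 2462 CPM in knockout livers 1 to 4. Fgb had 8829, 10375 and 8383 CPM in the young livers, 2746, 3539.9 and 7839.6 CPM in the old controls and 5221, 5025, 3471 and 2889 CPM in knockout livers 1 to 4. Fgg had 7192, 8972 and 6924 CPM in the young livers, 2216, 2682 and 5888 CPM in the old controls and 3956, 3739, 2546 and 1902 CPM in knockout livers 1 to 4. Young and old control values did not overlap for any chain in TMM-scaled CPM, yet old control 3 lay far above the other old controls for all 3. For Fgb the gap between young and old control values depends on the scaling. Old control 3 had 164361 of 21710228 counts for Fgb and young liver 3 had 132324 of 17600200. Against young livers the old controls had a log2 fold change of -1.19 ± 0.44 (SE, adjusted p = 0.069) for Fga. Fgb stood at -0.97 ± 0.36 (SE, adjusted p = 0.0739) and Fgg at -1.10 ± 0.37 (SE, adjusted p = 0.0532) in the same comparison, so none of the chains passed the test there. Against young livers the old knockout livers passed the test for all 3 chains, with log2 fold changes of -1.46 ± 0.40 (SE, adjusted p = 0.0411) for Fga, -1.15 ± 0.33 (SE, adjusted p = 0.0479) for Fgb and -1.34 ± 0.34 (SE, adjusted p = 0.0342) for Fgg. Among 10 hepatocyte markers, 8 had negative log2 fold changes in this comparison and 2 were called lower, Hnf4a and Tat, and the part of these markers in the fibrinogen values was not tested. Those 3 calls were lost when any young liver or knockout liver 2, 3 or 4 was left out, with fewer genes called overall. Of the 3 chains, limma voom called Fgg alone, and the fit with total counts only called Fga and Fgg. Fga was called in 7 of 14 alternatives, Fgb in 6 and Fgg in 8. Without young liver 2 the Fga value was -1.37 with an adjusted p of 0.146, and over 14 alternatives that p ranged from 0.00314 to 0.146. Without old control 3 the age change of Fga was -1.93 (adjusted p = 0.00333, 0.00333 to 0.202 over 13 alternatives), of Fgb -1.55 (0.0032) and of Fgg -1.66 (0.00379).

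The chains did not keep exactly the same proportions. Fga stood at 1.71 to 1.74 times Fgb per length in the young livers, at 1.10 to 1.60 times in the old controls and at 1.26 to 1.50 times in the knockout livers. Every old liver lay below every young liver in this ratio, with old control 1 lowest. The Fgg to Fgb ratio was 1.83 to 1.94 in young livers and 1.48 to 1.81 in the old livers, with both old groups entirely below the young livers.

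**Figure D2:**
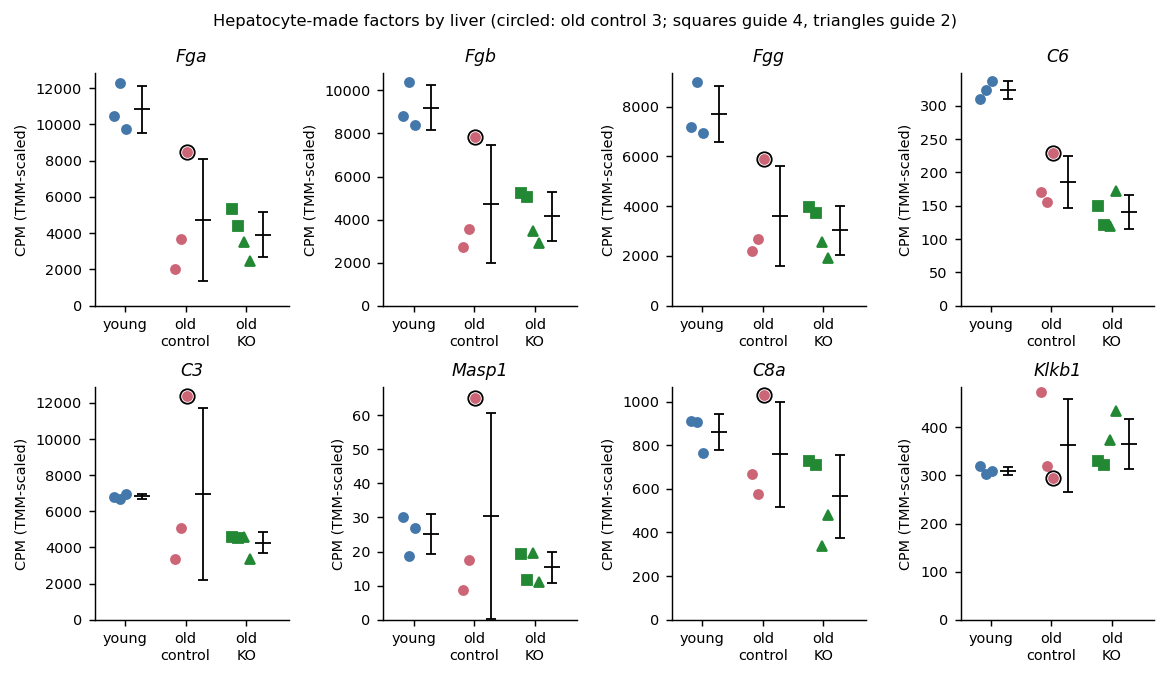
Points are TMM-scaled CPM of single livers on axes from 0, bars beside them the mean ± SD of each group, with old control 3 circled and guides 4 and 2 drawn as squares and triangles. Fibrinogen chains and C6 lie lower in all 7 old livers than in the young ones, old control 3 is the highest of the 10 livers for C3, Masp1 and C8a, and Klkb1 is highest in old control 1.

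The terminal components form the pore that complement inserts into membranes. C6, the link between C5b and the later subunits, was the only hepatocyte-made member called against young livers in both old groups (chromosome 15, 4727175 to 4814967, plus strand, 20 exons). C6 had 310.2, 323 and 338 CPM in the young livers, 171, 156 and 229.8 CPM in the old controls and 149.6, 120.5, 120.3 and 172 CPM in knockout livers 1 to 4. Young livers averaged 324 ± 13.7 CPM (SD, n = 3), old controls 185 ± 39.2 CPM (SD, n = 3) and knockout livers 141 ± 25.3 CPM (SD, n = 4), and no old liver of either group reached the young range. The log2 fold change was -0.80 ± 0.18 (SE, adjusted p = 0.0147) for old controls and -1.20 ± 0.17 (SE, adjusted p = 0.00743) for old knockout livers, each against young. In 14 of 14 alternatives C6 stayed called lower in knockout livers against young. The age call held in 11 of 13 and ended without young liver 2 (adjusted p = 0.0588) or without old control 2 (0.0604), with 0.000417 to 0.0604 over the alternatives. The C6 window, shown for comparison with fibrinogen (chr15:4726960-4727219, plus strand), holds CTGGGA on the opposite strand across its RefSeq start and neither of the other capitalised words.
C6: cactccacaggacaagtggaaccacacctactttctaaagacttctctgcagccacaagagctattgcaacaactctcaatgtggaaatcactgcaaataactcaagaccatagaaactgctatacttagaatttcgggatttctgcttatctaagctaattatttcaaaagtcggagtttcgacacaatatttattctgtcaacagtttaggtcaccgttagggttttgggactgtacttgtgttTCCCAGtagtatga

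C5, encoded by Hc, releases the anaphylatoxin C5a. Hc had 841, 792 and 778 CPM in the young livers, 642, 532 and 1259 CPM in the old controls and 614, 634, 582 and 568 CPM in knockout livers 1 to 4. Its young and knockout livers did not overlap in TMM-scaled CPM, while old control 3 exceeded all other livers. C9 had 403, 476 and 431 CPM in the young livers, 145, 261 and 476 CPM in the old controls and 258, 196, 285 and 249 CPM in knockout livers 1 to 4. C9, the subunit that polymerises into the pore, was below the young range in old controls 1 and 2 and in all 4 knockout livers, and at the top of the young range in old control 3. Neither passed the test, with log2 fold changes against young of 0.01 ± 0.26 (SE, adjusted p = 0.975) for Hc and -0.57 ± 0.33 (SE, adjusted p = 0.223) for C9 in old controls. Knockout livers against young gave -0.42 ± 0.24 (SE, adjusted p = 0.239) for Hc and -0.82 ± 0.30 (SE, adjusted p = 0.0915) for C9. Among the subunits of C8, which anchors the pore, the C8a values were 909, 908 and 763 CPM in the young livers, 669.8, 574 and 1031 CPM in the old controls and 729, 709.8, 338 and 482 CPM in the knockout livers. C8b had a mean of 325 ± 10.2 CPM (SD, n = 3) in young, 233 ± 112 CPM (SD, n = 3) in old control and 183 ± 27.3 CPM (SD, n = 4) in knockout livers. C8g, the lipocalin-like subunit, averaged 367 ± 42.4 CPM (SD, n = 3), 315 ± 83.2 CPM (SD, n = 3) and 363 ± 8.78 CPM (SD, n = 4) in the same order. Its age change of -0.22 ± 0.18 (SE, adjusted p = 0.39) missed the threshold, and without old control 1 it was -0.45 and called, at the lowest adjusted p of 13 alternatives, 0.0435, against a highest of 0.717.

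C3 and the alternative pathway spread widely among the old controls. C3 had 6783, 6701 and 6987 CPM in the young livers, 3382, 5093 and 12365 CPM in the old controls and 4563, 4529, 4551 and 3382 CPM in knockout livers 1 to 4. C3, the hub that all pathways cleave (chromosome 17, 57203970 to 57228136, minus strand, 42 exons), was tightly grouped in young livers at 6824 ± 147 CPM (SD, n = 3) and spread over 6946 ± 4769.6 CPM (SD, n = 3) in old controls. Old controls 1 and 2 lay below the young range, old control 3 far above it, and all knockout livers below it. Cfb had 1443, 1546 and 1316 CPM in the young livers, 957, 1139 and 2010.0 CPM in the old controls and 1240.0, 1118, 1133 and 950.2 CPM in knockout livers 1 to 4. Cfb, the protease factor B, had the same order, with only old control 3 above the young livers. The fitted changes were 0.03 ± 0.37 (SE, adjusted p = 0.965) for C3 and -0.07 ± 0.24 (SE, adjusted p = 0.86) for Cfb with age, and -0.68 ± 0.34 (SE, adjusted p = 0.187) and -0.37 ± 0.23 (SE, adjusted p = 0.27) for knockout against young livers. None passed the test.

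Cfd varied widely within every group. Cfd had 5.45, 0.0660 and 10.3 CPM in the young livers, 2.31, 0.729 and 0.143 CPM in the old controls and 1.05, 1.66, 0.188 and 0.0584 CPM in knockout livers 1 to 4. These correspond to 89, 1 and 163 counts in the young livers, 47, 16 and 3 in the old controls and 18, 38, 4 and 1 in the knockout livers. The young livers held the highest count and, tied with knockout liver 4, the lowest, and the groups overlapped. The 5 adipocyte markers Adipoq, Plin1, Retn, Lep and Adig summed to 3.67 CPM in young liver 3, where Cfd was highest, and to at most 0.344 CPM elsewhere. Young liver 1, with Cfd at 5.45 CPM, had an adipocyte marker sum of 0.0612 CPM. In 5 livers the adipocyte markers were all at 0, among them knockout livers 1 and 2, where Cfd had 1.05 and 1.66 CPM. Their part in the Cfd values was not tested. The log2 fold change of Cfd with age was -2.32 ± 1.20 (SE, adjusted p = 0.177).

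The chains of C1q, the recognition molecule of the classical pathway, rose together in old controls. C1qa (chromosome 4, 136895917 to 136898803, minus strand, 3 exons), C1qc (chromosome 4, 136889804 to 136893065, minus strand, 3 exons) and C1qb (chromosome 4, 136880129 to 136886187, minus strand, 3 exons) lie side by side within 18.675 kb. C1qa had 60.2, 40.6 and 49.4 CPM in the young livers, 97.3, 274 and 129.9 CPM in the old controls and 88.0, 154, 112 and 107 CPM in knockout livers 1 to 4. C1qb had 34.0, 26.7 and 33.6 CPM in the young livers, 59.5, 173 and 95.5 CPM in the old controls and 62.3, 101, 73.0 and 58.3 CPM in knockout livers 1 to 4. C1qc had 43.6, 31.8 and 31.5 CPM in the young livers, 60.2, 201 and 98.4 CPM in the old controls and 62.6, 107, 79.8 and 69.6 CPM in knockout livers 1 to 4. Every old liver exceeded every young liver for all 3 chains, with old control 2 highest and the knockout livers otherwise overlapping the old controls. Old controls were 3.34-fold higher for C1qa (log2 fold change 1.74 ± 0.35 SE, adjusted p = 0.0102), 3.48-fold for C1qb (1.80 ± 0.34 SE, adjusted p = 0.00936) and 3.36-fold for C1qc (1.75 ± 0.37 SE, adjusted p = 0.0122). Knockout livers against young had 1.20 ± 0.33 (SE, adjusted p = 0.0404) for C1qa, 1.23 ± 0.32 (SE, adjusted p = 0.0357) for C1qb and 1.16 ± 0.35 (SE, adjusted p = 0.0531) for C1qc, the last of which missed the threshold. Without old control 2 the age changes were 2.27-fold for C1qa, 2.46-fold for C1qb and 2.22-fold for C1qc, and all 3 were still called. Without young liver 2 the age calls ended narrowly, at an adjusted p of 0.0562 for C1qa, 0.0524 for C1qb and 0.0609 for C1qc, and they held in the other 12 of 13 alternatives, where the lowest was 1.39e-05. The knockout calls of C1qa and C1qb ended without any 1 young liver or without knockout liver 2, 3 or 4.

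The windows of C1qb (chr4:136886191-136886450, minus strand) and C1qc (chr4:136892905-136893164, minus strand) are shown with GAGGAA, a word that the macrophage factor PU.1 can bind, in capitals on either strand.
C1qb: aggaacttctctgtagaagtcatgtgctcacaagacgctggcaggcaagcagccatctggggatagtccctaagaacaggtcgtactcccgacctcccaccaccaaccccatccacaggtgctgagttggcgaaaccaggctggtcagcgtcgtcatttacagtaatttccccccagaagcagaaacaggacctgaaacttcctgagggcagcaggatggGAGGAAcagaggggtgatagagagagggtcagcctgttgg
C1qc: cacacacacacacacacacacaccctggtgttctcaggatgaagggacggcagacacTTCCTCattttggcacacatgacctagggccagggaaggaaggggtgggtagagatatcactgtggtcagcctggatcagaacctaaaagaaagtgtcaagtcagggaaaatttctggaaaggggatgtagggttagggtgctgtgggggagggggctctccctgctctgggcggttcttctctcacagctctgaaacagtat
GAGGAA begins 30 bases before the start in C1qb and, on the opposite strand, 193 bases before it in C1qc. It occurred in 28.3% of all windows, in 3 of 31 hepatocyte-made members and not in the C3ar1 window.

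The C1q chains and the macrophage markers, each summed, were both higher in every old liver than in any young liver, and the part of the markers in the C1q result was not tested. The summed C1q chains had 138, 99.1 and 114 CPM in young livers, 217, 648 and 324 CPM in old controls and 213, 362, 264 and 235 CPM in knockout livers. The 12 Kupffer cell and macrophage markers summed to 331 to 440.0 CPM in young, 483 to 1546 in old control and 534 to 779 in knockout livers, with no marker at 0 throughout. Of these 12, 8 were called higher and 0 lower in old controls against young, among them Clec4f (1.77 ± 0.41 SE, adjusted p = 0.0149) and Csf1r (2.06 ± 0.43 SE, adjusted p = 0.0116). Age changes were positive for 10 markers and negative for 2, with Cd163 lowest (-0.97 ± 0.46 SE, adjusted p = 0.146). In knockout livers against young, 10 were also positive, but only Aif1 was called higher (1.88 ± 0.37 SE, adjusted p = 0.0185). Cd163 was called lower in that comparison (-1.72 ± 0.44 SE, adjusted p = 0.0344). Divided by the marker sum, C1q was 0.313, 0.300 and 0.343 in young livers, 0.449, 0.419 and 0.303 in old controls and 0.387, 0.465, 0.409 and 0.440 in knockout livers. Old controls 1 and 2 and all knockout livers lay above the young range in this ratio, and old control 3 within it. Per Clec4f, a marker of Kupffer cells only, C1q was 1.41 to 1.83 in young, 1.50 to 2.03 in old control and 2.01 to 2.60 in knockout livers, so young and old control livers overlapped and the knockout livers lay above the young ones. The ratio depended on the marker. Per Csf1r, C1q was 3.65 to 4.13 in young, 2.59 to 4.17 in old control and 4.05 to 6.04 in knockout livers, with old controls 2 and 3 below the young range. Per Adgre1 it was 14.8 to 17.5 in young, 9.34 to 18.4 in old control and 16.7 to 30.1 in knockout livers, with old control 3 below the young range. Knockout livers 2 (for Csf1r) and 1 and 2 (for Adgre1) lay in the young range and the other knockout livers above it. The 8 markers of monocyte-derived macrophages, 5 of them called higher with age, summed to 46.2 to 59.1, 73.5 to 174 and 68.6 to 98.0 CPM in the same groups.

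**Figure D3:**
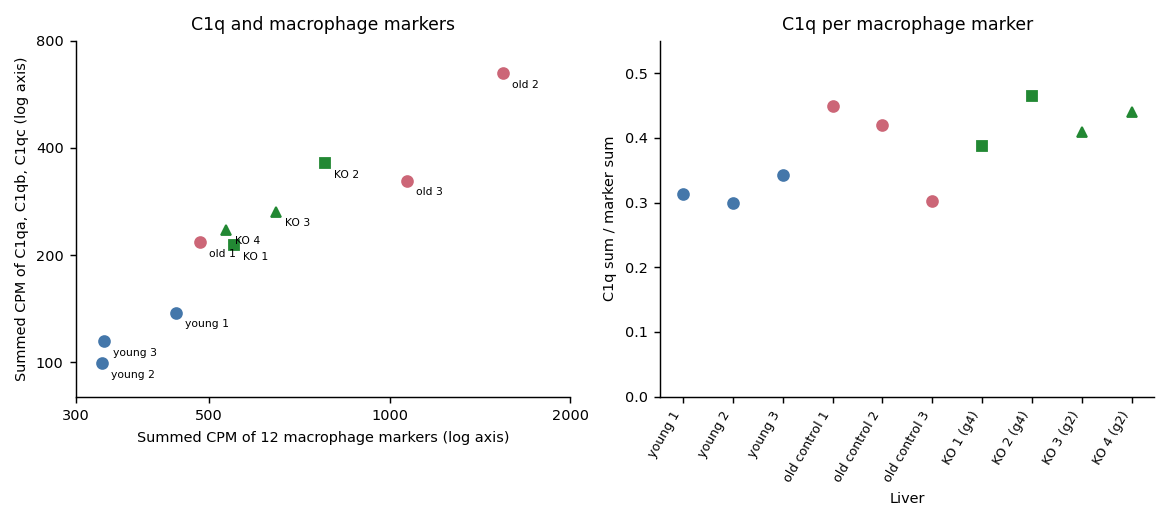
Left, summed CPM of C1qa, C1qb and C1qc against summed CPM of 12 macrophage markers, 1 point per liver on log axes (circles controls, squares guide 4, triangles guide 2). Right, the ratio of both sums in each liver on an axis from 0. Old control 2 has the highest sum on both axes, the young livers the lowest C1q sums, and old control 3 the only old ratio in the young range.

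The receptors followed C1q in part. C3ar1 had 4.22, 2.70 and 2.91 CPM in the young livers, 6.88, 19.8 and 8.63 CPM in the old controls and 6.74, 9.42, 6.78 and 6.77 CPM in knockout livers 1 to 4. C3ar1, which binds C3a, was higher in all old livers than in any young liver, 3.58-fold in old controls (log2 fold change 1.84 ± 0.37 SE, adjusted p = 0.0105). Knockout livers against young had 1.18 ± 0.35 (SE, adjusted p = 0.0532), which missed the threshold. Without old control 2 the age change was 2.36-fold and still called. Without young liver 2 its age call ended at an adjusted p of 0.0565, the highest of 13 alternatives. C5ar1 had 4.53, 2.04 and 3.55 CPM in the young livers, 2.65, 11.2 and 5.82 CPM in the old controls and 2.61, 5.76, 2.73 and 2.74 CPM in knockout livers 1 to 4. C5ar1, the C5a receptor of neutrophils and macrophages, was highest in old control 2, the library with the most neutrophil markers, and their part in that value was not tested. Its age change was 0.95 ± 0.50 (SE, adjusted p = 0.181), with overlapping groups.

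None of the 8 genes of the classical and lectin pathways beyond C1q passed the test in any comparison. C4b, the target of the C1s and MASP2 proteases, had 2122, 1745 and 1873 CPM in the young livers, 1582, 1671 and 3018 CPM in the old controls and 1650.2, 1686, 1671 and 1331 CPM in the knockout livers. Only old control 3 stood above the rest. C4a, its near-identical copy, fell with age (-1.20 ± 0.33 SE, adjusted p = 0.0273), while C4b had 0.13 ± 0.23 (SE, adjusted p = 0.719), and reads of the pair may have been split between them by the authors' counting. Mbl1 had 187, 216 and 199.8 CPM in the young livers, 158, 133 and 192 CPM in the old controls and 176, 182, 150.2 and 153 CPM in knockout livers 1 to 4. Mbl2 had 592, 642 and 604 CPM in the young livers, 581, 554 and 372 CPM in the old controls and 463, 652, 659 and 740.2 CPM in knockout livers 1 to 4. Both mannose-binding lectins had lower old control than young means in TMM-scaled CPM, without a call (-0.32 ± 0.15 SE, adjusted p = 0.15 for Mbl1 and -0.29 ± 0.20 SE, adjusted p = 0.32 for Mbl2). With total counts only the Mbl2 change was 0.04, so its direction and the order of its livers depend on the scaling. Old control 1 had 11821 of 18363637 counts for Mbl2 and young liver 2 had 9730 of 18415497. For Mbl2 old control 3 was the lowest of the 10 livers, unlike most hepatocyte-made members. Masp1 was uneven among the old controls, with 8.60, 17.5 and 65.0 CPM in the old controls against 30.0, 18.7 and 26.8 CPM in young and 19.2, 11.8, 19.5 and 11.1 CPM in knockout livers. The proteases C1ra, C1s1, C2 and Masp2 had age changes between -0.08 and 0.14 on the log2 scale. C1ra and C1s1 have near copies (C1rb, C1s2), C2 and Cfb share exon bases with the gene model Gm20547, and 54.9% of Masp2's exon bases overlap Tardbp on the other strand, so these counts carry an uncertainty of assignment.

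The regulators that hold complement in check lay in the same range. C4bp, which helps inactivate C4b, averaged 736 ± 30.4 CPM (SD, n = 3) in young, 557 ± 157 CPM (SD, n = 3) in old control and 561 ± 31.6 CPM (SD, n = 4) in knockout livers (age -0.40 ± 0.18 SE, adjusted p = 0.127). Its 4 knockout livers all lay below the young livers in TMM-scaled CPM. Cfi, the protease that cuts C3b, had 788 ± 77.1 CPM (SD, n = 3), 754 ± 343 CPM (SD, n = 3) and 624 ± 58.8 CPM (SD, n = 4) in that order. Serping1, the C1 inhibitor, had 1128 ± 61.0 CPM (SD, n = 3), 1005 ± 389 CPM (SD, n = 3) and 889 ± 85.4 CPM (SD, n = 4). Vtn, which blocks insertion of the pore, had 2926 ± 171 CPM (SD, n = 3), 2810.5 ± 338 CPM (SD, n = 3) and 2540.4 ± 219.7 CPM (SD, n = 4). No regulator was called in any comparison.

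Of the vitamin K-dependent clotting proteases, prothrombin was the most abundant. F2, which encodes it, had 1978, 1931 and 1901 CPM in the young livers, 1413, 1564 and 2056 CPM in the old controls and 1554, 1513, 1731 and 1437 CPM in the knockout livers. In TMM-scaled CPM, old controls 1 and 2 and all knockout livers lay below the young range, and old control 3 above it (age -0.21 ± 0.16 SE, adjusted p = 0.369, knockout against young -0.31 ± 0.15 SE, adjusted p = 0.17). These ranges depend on the scaling, since knockout liver 3 had 36746 of 20219744 counts for F2 and young liver 2 had 29270 of 18415497. With total counts only the age change of F2 was 0.09. F9, which is missing in haemophilia B, averaged 247 ± 18.1 CPM (SD, n = 3) in young, 178 ± 59.4 CPM (SD, n = 3) in old control and 176 ± 15.7 CPM (SD, n = 4) in knockout livers, and all knockout livers were below all young ones. F7, the partner of tissue factor, and F10, which cuts prothrombin, had age changes of 0.13 ± 0.16 (SE, adjusted p = 0.579) and -0.05 ± 0.13 (SE, adjusted p = 0.779). The cofactor F5 and the transglutaminase subunit F13b were highest in old control 3, with 597 and 235 CPM against means of 371 ± 25.8 CPM (SD, n = 3) and 147 ± 16.0 CPM (SD, n = 3) in young livers.

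The contact system, which starts clotting on surfaces and releases bradykinin, had no calls. Klkb1 had 319, 302 and 309 CPM in the young livers, 473, 320.3 and 294 CPM in the old controls and 331, 322, 374 and 435 CPM in knockout livers 1 to 4. Klkb1, plasma kallikrein, was the one hepatocyte-made member with all knockout livers above all young livers, though the difference of 0.24 ± 0.18 (SE, adjusted p = 0.364) did not pass the test. Of its exon bases, 43.2% are shared with the gene model Gm45753 on the same strand, so its counts carry an uncertainty of assignment. F11 had 51.3, 63.6 and 38.6 CPM in the young livers, 61.4, 56.4 and 77.7 CPM in the old controls and 53.5, 47.6, 53.0 and 48.1 CPM in knockout livers 1 to 4. F11 had its old controls above all 4 knockout livers, with the young livers spread across both. Kng1 had 2618, 2556 and 2295 CPM in the young livers, 2132, 2200.3 and 2744 CPM in the old controls and 2069.6, 2313, 2097 and 2062 CPM in knockout livers 1 to 4. The neighbouring copy Kng2 had 409, 345 and 328 CPM in the young livers, 318, 340.1 and 415 CPM in the old controls and 297, 338, 335 and 293 CPM in the knockout livers. Neither kininogen passed the test with age (-0.08 ± 0.15 SE, adjusted p = 0.728 for Kng1 and -0.01 ± 0.15 SE, adjusted p = 0.961 for Kng2), and reads of the 2 copies may be split between them. F12, the Hageman factor, had 598 ± 21.5 CPM (SD, n = 3) in young, 517 ± 58.9 CPM (SD, n = 3) in old control and 514 ± 44.4 CPM (SD, n = 4) in knockout livers.

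The anticoagulants and fibrinolytic factors had no calls. Serpinc1 had 2415, 2459 and 2184 CPM in the young livers, 1999, 1915 and 2057 CPM in the old controls and 2089, 1792, 2137 and 1935 CPM in knockout livers 1 to 4. Serpinc1, antithrombin, had all old control and all knockout livers below the young livers in TMM-scaled CPM, by a small step of -0.24 ± 0.14 (SE, adjusted p = 0.213) with age. That order depends on the scaling, since old control 1 had 40668 of 18363637 counts and young liver 1 had 39469 of 19059119. Of the exon bases of Serpinc1, 34.4% overlap Zbtb37 on the other strand, which had at most 71 counts in any liver. Plg had 2678, 2516 and 2137 CPM in the young livers, 1622, 2039.6 and 3209 CPM in the old controls and 1934, 1735, 1959 and 1643 CPM in knockout livers 1 to 4. In TMM-scaled CPM Plg, plasminogen, was below the young range in old controls 1 and 2 and in all 4 knockout livers, and highest in old control 3 (age -0.09 ± 0.23 SE, adjusted p = 0.789). Serpinf2, which inhibits plasmin, averaged 887 ± 72.9 CPM (SD, n = 3) in young, 852 ± 285 CPM (SD, n = 3) in old control and 667 ± 41.9 CPM (SD, n = 4) in knockout livers. Proc (protein C), its cofactor Pros1 (protein S) and Serpind1 (heparin cofactor II) had age changes of -0.04, 0.27 and -0.08 on the log2 scale. Where the 3 old controls all lay below the 3 young livers in TMM-scaled CPM, the members were C6, Mbl2, Fga, Fgb, Fgg and Serpinc1, 6 of the 40 hepatocyte-made genes, against 18.0% of all genes tested. The old controls all lay above the young livers for the 3 C1q chains and C3ar1 only among the 46, against 19.7% of all genes.

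**Figure D4:**
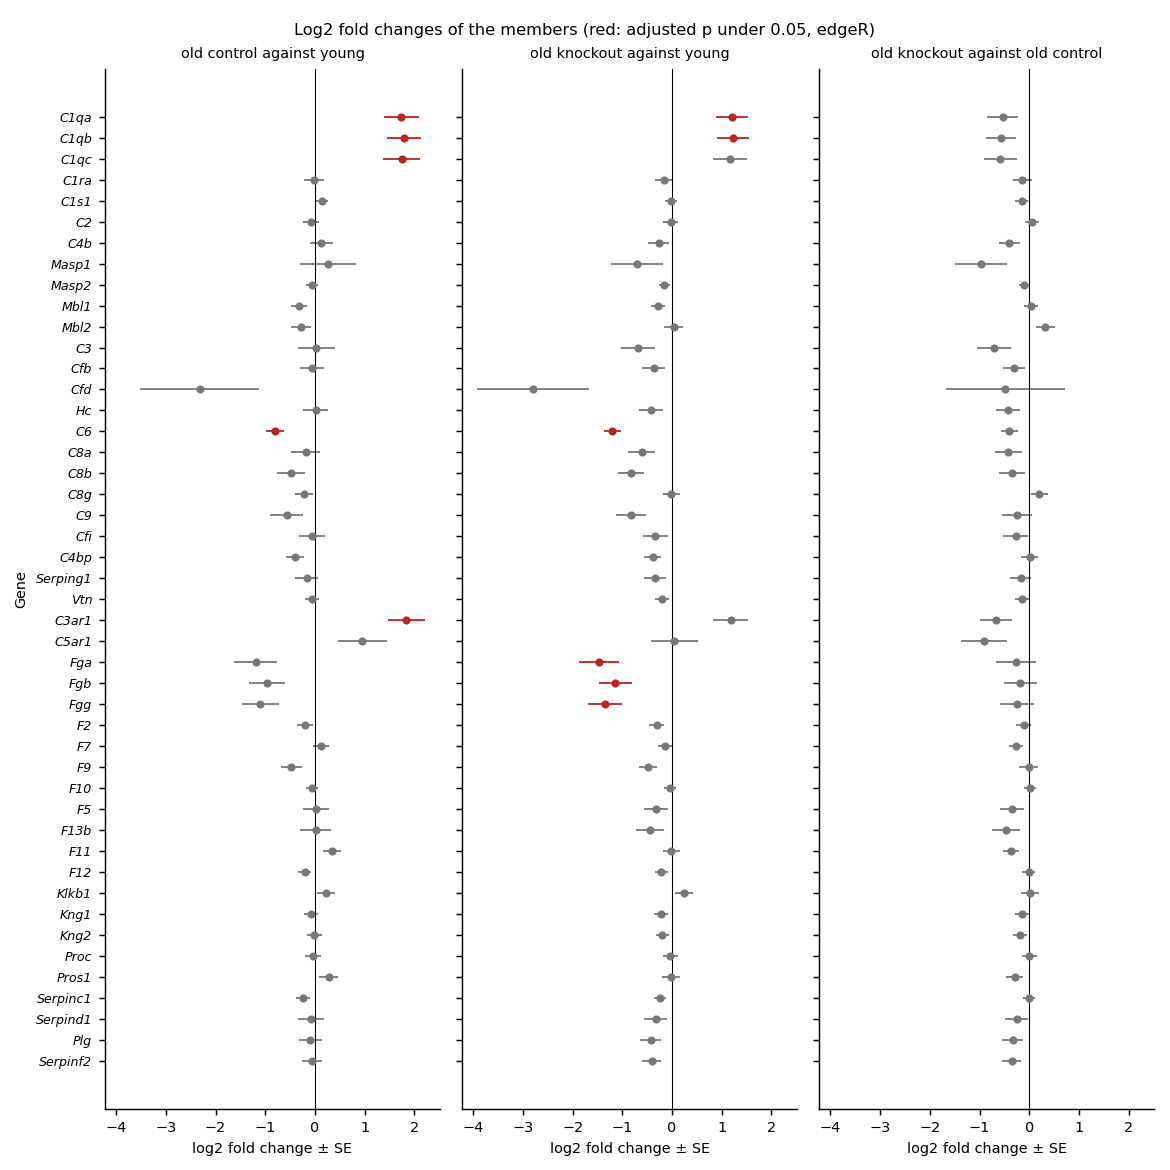
Log2 fold changes with standard errors for the 46 members in 3 comparisons on 1 shared axis, red where the adjusted p was under 0.05. Red points are C1qa, C1qb, C1qc, C3ar1 and C6 for old control against young, C1qa, C1qb, C6, Fga, Fgb and Fgg for old knockout against young, and none for old knockout against old control.

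Old control 3 stood apart from the other old controls in most hepatocyte-made members. It was the highest of the 3 old controls for 35 of 40 hepatocyte-made members, where it was so for 37.0% of all genes, and the highest of all 10 livers for 24 of 40, against 13.5%. Its level over the mean of old controls 1 and 2 had a median of 1.59 over these members and ranged from 0.655 for Mbl2 to 4.97 for Masp1. Among 10 general hepatocyte markers it was the highest old control for 5, with a median ratio of 1.12 and a range of 0.704 to 2.15. Alb had 53019, 67961 and 83873 CPM and Hnf4a 437, 475 and 842 CPM in the old controls, and the part of these markers in the values of old control 3 was not tested. The median coefficient of variation of the 40 members was 7.21% among young livers, 28.9% among old controls and 9.73% among knockout livers. Leaving out the old control that was highest for most of these members lowers their old control means by itself, so the following calls are no separate result. Without old control 3, 16 members were called lower with age, where 17.0% of all genes were, and the same 4 higher, where 20.8% were. The 16 were C3, Hc, C6, C8b, C9, Cfb, Mbl1, C4bp, Serping1, Fga, Fgb, Fgg, F2, F5, F9 and Serpind1, all made by hepatocytes. The median over the 46 members was then -0.34, against 0.04 for all genes. C3 (-0.69), Hc (-0.46) and F5 (-0.48) changed sign on the log2 scale, from values near 0 with all 3 old controls.

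**Figure D5:**
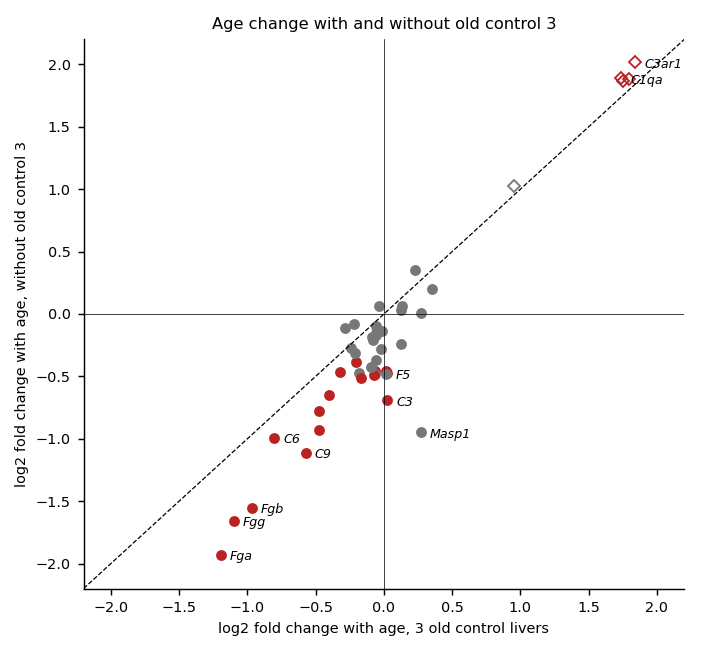
Log2 fold change of old control against young with all 3 old controls (x axis) and without old control 3 (y axis), with hepatocyte-made members as filled circles, the others as open diamonds, and red for an adjusted p under 0.05 without that liver. The dashed line marks equal values and Cfd is not drawn. Most hepatocyte-made members lie below the line, while the C1q chains and C3ar1 lie slightly above it.

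No member passed the test between old Cd44 knockout and old control livers. Against old controls 0 of 46 members were called, as were 0.0% of all genes, and the smallest adjusted p among members was 0.748. At an unadjusted p under 0.05 there were 2 of 46 members, C6 and F11, where 6.59% of all genes were (916 genes). DESeq2 called 8 genes and limma voom 0, none of them members. The C6 values gave -0.40 ± 0.17 (SE, unadjusted p = 0.0391), F11 -0.37 ± 0.17 (SE, unadjusted p = 0.0494) and C3 -0.71 ± 0.34 (SE, unadjusted p = 0.0638). F11 was the one member whose 4 knockout livers all lay below the 3 old controls, where 3.26% of all genes did so, and no member had them all above, where 2.84% of all genes did. The hepatocyte-made members had a median of -0.21 against -0.02 for all genes, with 33 of 40 negative. Without old control 3 their median was 0.07 with 15 of 40 negative, so the sign of this median depended on that library. The C1q chains had -0.58 to -0.54 on the log2 scale (adjusted p of 0.771 to 0.793), beside 0 of 12 macrophage markers called and all 12 negative. Without old control 2, the highest of the 10 livers for each chain, they had -0.07 to 0.02.

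The 2 Cd44 guides, with 2 livers each, gave no call among members in edgeR's fit with 4 groups, where 0.0212% of all genes were called. The count at an unadjusted p under 0.05 was 1 of 46 members, C8a, where 4.4% of all genes were. DESeq2 called 74 genes and limma voom 3, none of them members. C8a was higher with guide 4, at 729 and 709.8 CPM, than with guide 2, at 338 and 482 CPM (log2 fold change 0.81 ± 0.28 SE, adjusted p = 0.871). The fibrinogen chains pointed the same way without a call, at 0.70 ± 0.51 (SE, unadjusted p = 0.202) for Fga, 0.69 ± 0.41 (SE, unadjusted p = 0.121) for Fgb and 0.79 ± 0.40 (SE, unadjusted p = 0.0767) for Fgg. For each chain both guide 4 livers exceeded both guide 2 livers. With 2 livers per guide such an order is easily met, and its share over all genes was not counted. The 3 chains need not be independent of each other. Cfd had 3.34 ± 1.81 (SE, unadjusted p = 0.0938), from 18 and 38 counts against 4 and 1.

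Of 59 other genes of the 2 cascades, 58 were in the table and 54 passed the filter. In old controls against young 11 of the 54 were called higher and 5 lower, beside the same background shares of 14.1% and 8.66%. Knockout against young livers had 3 higher and 5 lower, where 6.64% and 4.97% of all genes were, and knockout against old controls 0. The 8 with the smallest adjusted p in the age comparison are named here. F8, the cofactor missing in haemophilia A and made by endothelium, had 6.12, 4.62 and 5.83 CPM in the young livers, 9.39, 9.94 and 11.8 CPM in the old controls and 7.21, 6.20, 7.39 and 5.60 CPM in the knockout livers (0.91 ± 0.18 SE, adjusted p = 0.0104). Beside it, 7 of 8 sinusoidal endothelium markers were called higher with age and all 8 were positive, with a median log2 fold change of 0.87, and their part in the F8 value was not tested. Tfpi, the inhibitor of tissue factor, also rose (1.22 ± 0.25 SE, adjusted p = 0.0108), as did Adamts13, the protease that trims von Willebrand factor (1.27 ± 0.28 SE, adjusted p = 0.0133). The collectins Colec11 (1.32 ± 0.29 SE, adjusted p = 0.0127) and Colec10 (0.89 ± 0.20 SE, adjusted p = 0.0135), which start the lectin pathway, rose too. Of these, Colec10 was also a stellate cell marker here, and 6 of the 8 stellate cell markers were called higher. Vsig4, a complement receptor of Kupffer cells that was also one of the macrophage markers, rose with 2.42 ± 0.54 (SE, adjusted p = 0.0138), and so did the integrin chain Itgb2 with 2.07 ± 0.49 (SE, adjusted p = 0.0169). Cfhr2, a factor H-related gene of hepatocytes, fell, from 709, 879.8 and 648 CPM in young livers to 397, 453 and 562 CPM in old controls and 523, 460.3, 462 and 475 CPM in knockout livers (-0.66 ± 0.17 SE, adjusted p = 0.0203).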

How the data were processed

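Whole-liver RNA of 10 male mice was measured by sequencing. The authors deposited a table of raw counts by gene symbol, not normalized. The submitters' processing notes name FastQC 0.11.8, Trim Galore 0.4.4, STAR 2.5.3a, HOMER and mm10. The annotation and the strand setting of the counting are not given in the sources used here, so overlapping genes and near copies may share reads. Library preparation used the Watchmaker mRNA kit on an Element AVITI instrument, per the labels' protocols.

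Groups came from the sample titles. Counts were tested with edgeR 4.0.16 in R 4.3.3 (quasi-likelihood test, TMM factors, filterByExpr with a minimum count of 10 and minimum total of 15, 1 coefficient per group over all 10 livers, 13909 genes). The guides were compared in a fit with 4 groups (14153 genes). P-values were adjusted by Benjamini-Hochberg over all genes, and the standard error is the log2 fold change divided by the square root of F. The biological coefficient of variation was 21.8%. Totals were 15821198 to 21710228 counts per liver. No 2 livers of a group agreed within sampling noise (lowest chi-square per degree of freedom 20.3). RPKM-like levels divide mean CPM by the longest APPRIS principal transcript of GENCODE M21 on GRCm38, the build of mm10, which also gave the positions. DESeq2 1.42.0, limma 3.58.1, other scalings, no filter, only the groups compared, each liver left out, each guide alone and, added after seeing the data, summed near copies were the alternatives. The script was tested on simulated counts. The members and all gene lists were chosen with earlier results of these data known. Per-liver values are given for called members, 21 members set by name, and the 3 smallest unadjusted p-values for knockout and guide, and of the other pathway genes the 8 with the smallest adjusted p with age are named.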

Additional observations from a re-analysis of the deposited data

Results flagged for a closer look

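Among the 4 knockout livers, 5 of the 46 members had 1 liver set apart from the others, where 5.61% of all genes tested had one and chance gives about 1 in 20. Members set apart in the same liver need not be independent of each other. The share of the group's range taken by the gap to the next liver was 0.971 for C3 and 0.9 for C4b, both lowest in knockout liver 4. C3 had 4563, 4529, 4551 and 3382 CPM in knockout livers 1 to 4, and C4b had 1650.2, 1686, 1671 and 1331 CPM.

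The gap was 0.984 of the range for C3ar1, 0.959 for C5ar1 and 0.858 for Kng1, each highest in knockout liver 2. C3ar1 had 6.74, 9.42, 6.78 and 6.77 CPM, C5ar1 2.61, 5.76, 2.73 and 2.74 CPM and Kng1 2069.6, 2313, 2097 and 2062 CPM. Knockout liver 2 also had the highest macrophage marker sum of the knockout livers, 779 CPM, and its part in the receptor values was not tested.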

How the results depend on the processing

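Members called with age, 4 higher and 1 lower, became 4 lower with DESeq2 (11.6% of all genes lower), 3 lower with limma voom (8.06%) and 8 higher with total counts only (27.8% of all genes higher). Leaving out 1 liver gave 0 to 4 higher and 0 to 16 lower, with 0 in both directions without young liver 2 and 16 lower without old control 3. Over the fits without 1 liver the age change ranged from -0.69 to 0.35 for C3, from -0.46 to 0.24 for Hc and from -0.48 to 0.24 for F5, each lowest, negative and called without old control 3. For old knockout against young, 2 higher and 4 lower became 4 higher and 7 lower with DESeq2 (10.5% and 9.66% of all genes), 2 lower with limma voom (3.91%), 4 higher with total counts only (24.0%), and 4 higher and 16 lower with only the groups compared (16.9% and 14.1%). Without each liver in turn there were 0 to 2 higher and 1 to 4 lower. Over all genes the age calls numbered 3172, and 1192 with only the groups compared. Knockout and guide comparisons had 0 members called under each alternative run. The cause of these differences was not tested.

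Of single-member values, uncalled ones changed sign in 55 of 598 for age, 64 of 736 for knockout, 35 of 644 for old knockout against young and 45 of 506 for the guides. Depth limits Cfd and the receptors most, since 3 counts equal up to 0.198 CPM. No paired analysis was possible because replicate numbers here follow record order and pair no livers.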

Other observations

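Another 3 clotting genes were chosen after their values were seen, because they were called between old knockout and young livers but not with age. Thbd, the endothelial cofactor of protein C activation, had 6.55, 6.07 and 8.36 CPM in the young livers, 2.65, 5.52 and 10.1 CPM in the old controls and 3.02, 3.45, 2.54 and 1.93 CPM in the knockout livers (log2 fold change -1.35 ± 0.37 SE, adjusted p = 0.0423 in edgeR for knockout against young). All 4 knockout livers lay below the young livers, and old control 3 lay above them. F3, tissue factor, had 3.12, 2.57 and 3.93 CPM in the young livers, 4.72, 4.79 and 3.34 CPM in the old controls and 5.99, 6.59, 4.85 and 6.65 CPM in the knockout livers (0.91 ± 0.22 SE, adjusted p = 0.0313), with all knockout livers above all others in TMM-scaled CPM. Knockout liver 3 had 103 of 20219744 counts for F3 and old control 2 had 105 of 19676595, so their order depends on the scaling. Serpine2, protease nexin, had 16.1, 35.4 and 31.4 CPM in the young livers, 14.6, 12.8 and 19.2 CPM in the old controls and 17.1, 11.4, 7.49 and 11.6 CPM in the knockout livers (-1.22 ± 0.30 SE, adjusted p = 0.0314). Against old controls none of the 3 was called, with adjusted p of 0.744 for Thbd, 0.748 for F3 and 0.82 for Serpine2.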
